A study of Mus musculus with 18 samples.

Results

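The Heavy-over-Total shift is, for each gene, the change after Prmt1 loss in RNA from heavy polysomes minus the change after Prmt1 loss in total cytoplasmic RNA. It uses the 12 of 18 libraries in the series that are Heavy or Total, 3 in each of 4 groups, picked by their labels and not by a measured value. The test covered all 17515 genes with a value above 0 in 3 or more libraries. A shift above 0 means that a message gained more, or lost less, of its share of the Heavy RNA than of its share of the Total RNA.

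The cells are a mouse osteosarcoma line, a culture of bone-forming tumour cells that came from mice with conditional knockout of p53 and Rb. Every group carries floxed Prmt1 alleles (Prmt1 f/f) and a stable CreER, a recombinase that tamoxifen switches on. The control groups received ethanol and have the genotype label wild type. The knockout groups received 4-hydroxytamoxifen and have the label Prmt1-/-. All are labelled as of mixed strain background and post natal day 299. Total RNA was taken from 50 µl of the cleared cytoplasmic lysate, and the other 250 µl was spun through a 10 to 50% sucrose gradient, from which the fractions with more than 3 ribosomes were pooled as Heavy. No cells without floxed alleles that received 4-hydroxytamoxifen are among the libraries, so effects of the drug, of Cre and of the deletion cannot be told apart. No source says whether the 3 libraries within a group are separate cultures, and p-values therefore reflect the spread among the libraries alone, part or all of which may be technical.

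PRMT1 is the main enzyme that places asymmetric methyl marks on arginine, and its substrates include histones and many RNA-binding proteins that act in splicing, export and translation. A sucrose gradient sorts messages by the number of ribosomes they carry: a message in active translation sediments deep, and one that is stored or blocked stays near the top. A long coding region has room for more ribosomes than a short one, so coding length sets part of where a message runs.

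The 12 libraries held 32255673 to 52124584 reads each. Values are in CPM, read counts scaled to a library total of 1000000, so each is a share of its library and not a rate of translation. In such bulk RNA, fewer cells with a message and less of it per cell cannot be told apart. Of 28 genes listed for the osteoblast lineage, 25 were tested, with a median level of 3.62 CPM. The transcription factors Runx2 (59.7 CPM on average) and Twist1 (68.6 CPM) were above that median. The mature osteoblast product Bglap, which encodes osteocalcin, was at 0.09 CPM. These are examples and not a summary of the list. Markers of other cell types were mostly low, and their summed levels differed between the genotypes in some sets. Over 10 epithelial markers, 7 of them below 1 CPM on average and Epcam at 0.03 CPM, the summed level was 9.60 to 10.3 CPM in the Heavy controls and 17.9 to 27.8 CPM in the Heavy knockout libraries, and 6.005 to 8.64 against 17.0 to 21.2 CPM in Total. Of the 9 tested, 5 rose in Heavy and 5 in Total and 0 fell, keratins among them. Over 12 macrophage markers, 9 of them below 1 CPM, 1 at 0 in all 12 libraries and the leukocyte gene Ptprc at 0.01 CPM, it was 9.12 to 10.2 against 12.2 to 16.03 CPM in Heavy and 6.67 to 8.97 against 16.6 to 20.1 CPM in Total. Of the 10 tested, 3 rose in Heavy, 5 rose in Total and 0 fell, and 3 (Cd68, Csf1r and Fcgr1) had a shift below 0 at an unadjusted p under 0.05. The part of these markers in any shift was not tested. Knockout library 1 stood apart in both fractions, most of all in Heavy, where its correlations with the other knockout libraries were 0.966 and 0.950 against 0.993 between those. In Total they were 0.985 and 0.983 against 0.996. Control library 1 also stood apart, at 0.991 and 0.990 against 0.996 in Heavy and 0.990 and 0.986 against 0.996 in Total. Where knockout library 1 decides a value, that value is also given without the knockout libraries numbered 1.

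The label was first checked on Prmt1 itself (chr7:44976755-44986420, GRCm38), which was lower in every knockout library of both fractions. Its Heavy level was 412, 378 and 370.1 CPM in control replicates 1, 2 and 3 and 64.4, 121 and 145 CPM in the knockout. Its Total level was 256, 277 and 285 CPM in the control and 147, 176 and 173 CPM in the knockout. The groups did not overlap in either fraction. By limma on log2(CPM + 1), Prmt1 fell by 1.88 in Heavy (SE 0.215, adjusted p = 7.87e-06) and by 0.72 in Total (SE 0.215, adjusted p = 0.0202). In Light RNA, from fractions with fewer than 3 ribosomes, the difference was -0.20 (limma adjusted p = 0.506). In control cells Prmt1 made up more of the Heavy than of the Total RNA, and in knockout cells less, so that its shift was -1.16 (SE 0.304, 95% interval -1.80 to -0.51). That shift did not pass the threshold over all genes (limma adjusted p = 0.251). Without the knockout libraries numbered 1 it was -0.90 and passed (limma adjusted p = 0.0484). With array weights, which count a library less the more it deviates, in limma's gene-by-gene method, an alternative chosen after seeing the data, it was -0.95 and passed as well (limma adjusted p = 0.0368).

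Across the transcriptome, Prmt1 loss changed many messages in each fraction, and the Heavy and Total changes of a message were close to each other. The limma fit called 5061 genes (28.9% of those tested) in Heavy, of which 3242 (18.5%) rose and 1819 (10.4%) fell, and 4628 genes (26.4%) in Total, of which 2820 (16.1%) rose and 1808 (10.3%) fell. The split depended on the scaling: with quantile normalization 2524 rose and 2639 fell in Heavy and 2182 rose and 2287 fell in Total, and in Heavy it was 2547 and 3158 with median-of-ratios scaling and 2677 and 2863 with trimmed-mean (TMM) scaling. For the shift it called 2 genes, which is 0.0114% of those tested, 1 higher (0.00571%) and 1 lower (0.00571%). That count was 1 without any single Heavy library or without Total control replicate 1 or 2, 3 without Total knockout replicate 1 and 9 without Total knockout replicate 3. At an unadjusted p under 0.05 there were 1388 genes (7.92%), 993 above 0 (5.67%) and 395 below 0 (2.26%). With 1 library left out, that number ran from 1000 (without Heavy control replicate 1) to 1960 (without Heavy knockout replicate 3). Among the 9641 genes that averaged 5 CPM or more none was called, and the smallest limma adjusted p was 0.202. At an unadjusted p under 0.05, 646 of them were above 0 and 100 below. The shares of all genes in this paragraph are those to set beside the list counts below.

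The size of a shift that these libraries could show can be read from its error. For genes of at least 5 CPM the median SE of the shift was 0.216, and the median 95% interval reached 0.458 to each side. For 8536 of these genes (88.5%) the whole interval lay between -1 and 1, so a shift of that size was outside it. Shifts of at least 1 were measured for 10 of these genes and of -1 or less for Prmt1 alone.

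**Figure D1:**
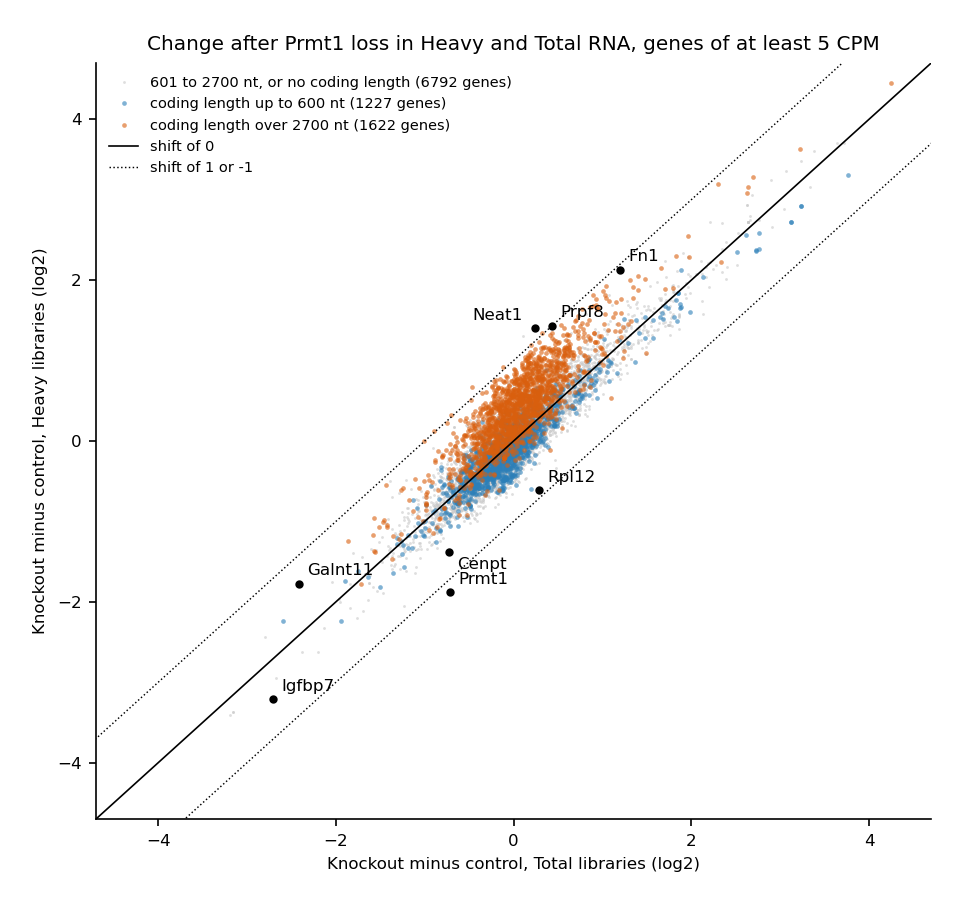
Change after Prmt1 loss (log2) in Total (x axis) and Heavy (y axis) libraries, 1 point for each of the 9641 genes of at least 5 CPM, coloured by coding length. Points on the solid line have a shift of 0 and points on the dotted lines a shift of 1 or -1; messages with a coding length over 2700 nt lie mostly above the solid line, Prmt1 lies below it, and Igfbp7 has large changes in both fractions with a shift of -0.50.

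Both called genes are of low abundance, and both calls depend on the scale. The long noncoding RNA 4833412C05Rik (chr7:67784538-67803496) had 14, 8 and 11 reads in the Heavy control libraries and 0, 0 and 3 in the Heavy knockout libraries. In Total it had 105, 115 and 74 reads in the control and 8, 10 and 12 in the knockout. It was thus lower in the knockout in both fractions, with no overlap of groups. After 1 CPM was added before the log, the step from a mean of 0.275 to 0.0310 CPM in Heavy counted as -0.31 (limma adjusted p = 0.0108) and the step from 2.42 to 0.256 CPM in Total as -1.44 (limma adjusted p = 1.02e-08). The shift was 1.13 (SE 0.118, limma adjusted p = 7.75e-04). With 0.1 CPM added it was 1.24 and did not pass (limma adjusted p = 0.468), and on the recovered reads with voom it was -0.31 (adjusted p = 0.990 by limma), which is the opposite direction.

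The other called gene, Cngb1 (chr8:95239043-95306585), encodes a subunit of a cyclic nucleotide-gated channel known from photoreceptors. It had 2, 0 and 3 reads in the Heavy control libraries and 14, 13 and 11 in the Heavy knockout libraries. In Total it had 3, 2 and 1 reads in the control and 76, 72 and 56 in the knockout. Both fractions were higher in the knockout, the Total fraction by more: 0.37 in Heavy (limma adjusted p = 0.0133) and 1.39 in Total (limma adjusted p = 1.10e-07). The shift was -1.02 (SE 0.147, limma adjusted p = 0.0295). It kept its sign under every alternative that was run and passed the threshold in 10 of 27 of them. Leaving out any 1 library other than Total knockout replicate 1 or 3 ended the call (limma adjusted p = 0.0660 to 0.153).

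**Figure D2:**
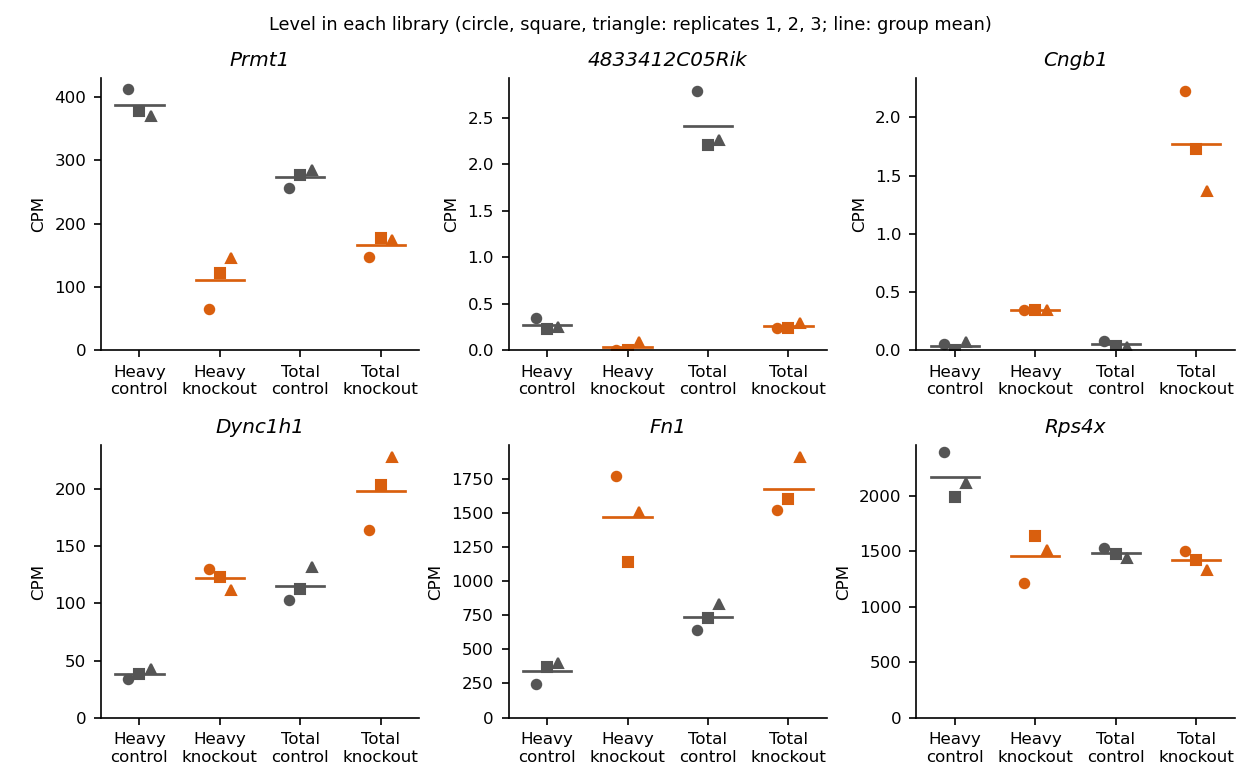
Level (CPM, axes from 0) of 6 genes in each Heavy and Total library, with circles, squares and triangles for replicates 1, 2 and 3 and lines for group means. Prmt1 is lower in both knockout groups and most in Heavy. At levels under 3 CPM, 4833412C05Rik is lower and Cngb1 higher in both knockout groups, by more CPM in Total than in Heavy. Dync1h1 and Fn1 are higher in both knockout groups, and Rps4x is lower in the Heavy knockout libraries while its Total groups overlap.

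Of the message properties set beside the shift (coding length, UTR lengths and GC contents), coding length had the highest correlation with it over all 12 libraries. Among genes of at least 1 CPM, the median shift was 0.33 for the 1944 genes with a coding length over 2700 nt, 0.05 for the 4500 genes of 1201 to 2700 nt, -0.09 for the 3160 genes of 601 to 1200 nt, -0.09 for the 1235 genes of 301 to 600 nt and 0.01 for the 190 genes up to 300 nt. Of the longest class, 522 genes (26.9%) were above 0 at an unadjusted p under 0.05 and 6 (0.309%) below. Over 9360 genes of at least 5 CPM, Spearman's rho of the shift with coding length was 0.558. It was 0.211 with the length of the 3' UTR, 0.128 with that of the 5' UTR and -0.000906 with the GC content of the coding region. These are descriptions across genes of the same libraries.

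The library medians show how the pattern was spread. Relative to the control mean of their fraction, messages over 2700 nt had a median of 0.60, 0.23 and 0.32 in Heavy knockout replicates 1, 2 and 3. In the Heavy control libraries the medians were -0.15, 0.09 and 0.07. In the Total knockout libraries they were 0.07, 0.02 and 0.04. All 3 Heavy knockout libraries were thus above all Heavy controls for long messages, replicate 1 by the most. For messages up to 300 nt the Heavy knockout medians were -0.56, 0.03 and 0.14, and for those of 301 to 600 nt they were -0.55, -0.05 and 0.16. The lower values for short messages thus came from replicate 1, which is also the Heavy library with the lowest Prmt1.

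Without the knockout libraries numbered 1, the medians of both long and short messages lay above 0. The median shift was then 0.22 over 2700 nt, 0.03 at 1201 to 2700 nt, 0.02 at 601 to 1200 nt, 0.15 at 301 to 600 nt and 0.29 up to 300 nt. Among genes of at least 1 CPM, 304 (15.6%) over 2700 nt and 51 (26.8%) up to 300 nt were above 0 at an unadjusted p under 0.05. Of all 11568 genes of at least 1 CPM, 785 were above 0 at that level and 178 below. Of all genes tested, 5.94% were above 0 at that level, 2.67% below and 8.61% in either direction. Spearman's rho was then 0.123 with coding length and 0.149 with the length of the 3' UTR, so that coding length no longer had the highest one. The part of knockout library 1 in the pattern is given by these values; what set it apart was not tested.

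**Figure D3:**
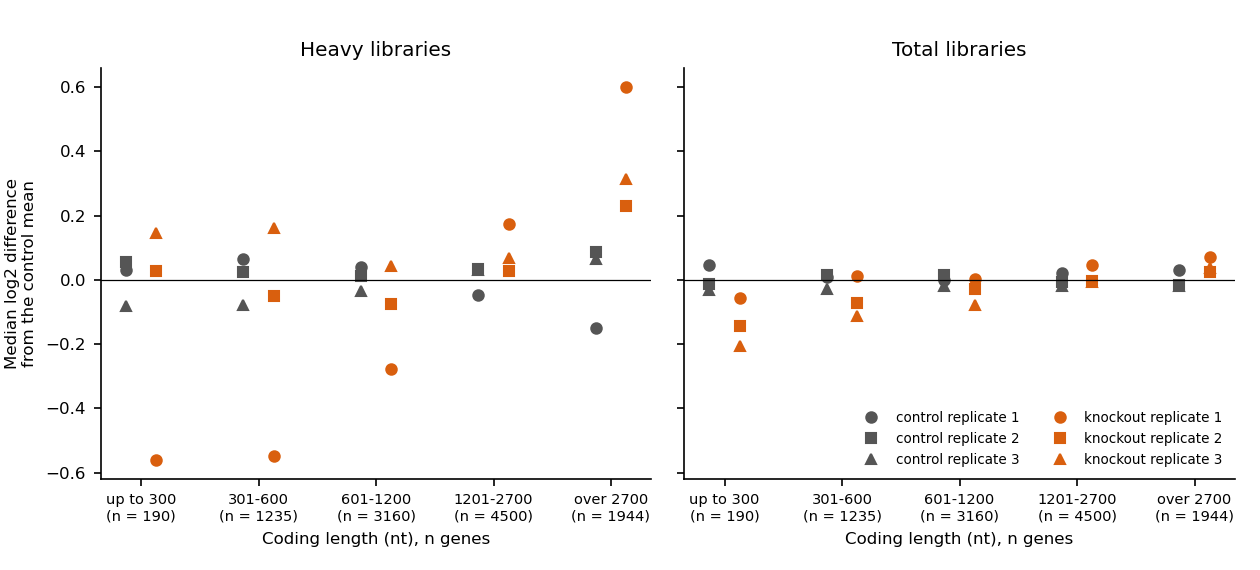
Median difference from the control mean of the fraction (log2) over genes of at least 1 CPM in 5 classes of coding length, 1 point a library, Heavy on the left and Total on the right. Knockout replicate 1 spans -0.56 to 0.60 in Heavy; all 3 Heavy knockout libraries are above the Heavy controls over 2700 nt.

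The messages with the largest coding regions had shifts above 0 for the most part. The list of giant coding messages holds genes for very large motor, scaffold and chromatin proteins, with a median coding length of 13935 nt. Of its 39 tested members, 35 had a shift above 0, 24 of them at an unadjusted p under 0.05, and 0 were below 0 at that level. The median shift was 0.66, beside 0.01 for all genes tested, and 0.58 without the knockout libraries numbered 1. In control cells these messages were under-represented in Heavy against Total, with a median difference of -1.19, and in knockout cells the median difference was -0.63. In Heavy itself, 26 of the 39 rose and 0 fell, and in Total 13 rose and 1 fell (limma adjusted p under 0.05). When the trend on coding length was removed from each library the median shift was 0.08, so the list stood near the other messages of its length.

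Dync1h1, the heavy chain of cytoplasmic dynein, is one of them. Its Heavy level was 34.0, 38.5 and 42.5 CPM in the control and 130.4, 123 and 112 CPM in the knockout. Its Total level was 103, 112 and 132 CPM in the control and 164, 203 and 229 CPM in the knockout. It rose in both fractions with no overlap of groups, by 1.65 in Heavy (limma adjusted p = 3.33e-07) and 0.77 in Total (limma adjusted p = 5.44e-04), and its shift was 0.88 (95% interval 0.46 to 1.29, limma adjusted p = 0.202).

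Mdn1, the AAA ATPase midasin that acts in assembly of the large ribosomal subunit, showed another route to a shift of the same size. Its Heavy level was 5.75, 5.94 and 5.72 CPM in the control and 8.85, 7.23 and 12.5 CPM in the knockout. Its Total level was 27.0, 25.8 and 24.9 CPM in the control and 19.4, 18.3 and 22.5 CPM in the knockout. The Heavy libraries were thus higher in the knockout (0.60, limma adjusted p = 0.00718) and the Total libraries lower, though not past the threshold (-0.36, limma adjusted p = 0.0977). The shift was 0.96 (95% interval 0.50 to 1.41, limma adjusted p = 0.202), and 0.97 without the knockout libraries numbered 1. It passed under limma's default array weights (limma adjusted p = 0.0439), whose estimate stopped before it converged, and in no other setting. Those weights gave Heavy knockout replicate 2 a weight of 6.85e-05, so that this library hardly counted.

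Other long messages had like values. Prpf8, the core splicing factor at the heart of the spliceosome, had 84.6, 88.8 and 111 CPM in the Heavy controls and 289, 238 and 244 CPM in the Heavy knockout libraries, with a shift of 1.00 (SE 0.216, limma adjusted p = 0.202). Trrap, the scaffold of several histone acetyltransferase complexes, had a shift of 0.92, and the ubiquitin ligases Herc1 and Ubr2 had 0.83 and 0.91. Zzef1 had 0.77 and Helz2, a helicase that acts as a nuclear receptor coactivator, 0.79. Their limma adjusted p-values were 0.202 to 0.220, and without the knockout libraries numbered 1 their shifts were 0.59 to 0.77.

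Extracellular matrix messages also had shifts above 0, and among the collagens the Heavy RNA rose where the Total RNA mostly did not. Of 21 collagen genes tested, 19 had a shift above 0, 7 of them at an unadjusted p under 0.05, and the median was 0.62. Without the knockout libraries numbered 1, 4 were at that level and the median was 0.45. In Heavy 13 collagens rose and 0 fell, with a median change of 0.89; in Total 4 rose and 0 fell, with a median of 0.19. Collagen messages have long coding regions, with a median of 5007 nt in the list. With the length trend removed from each library their median shift was 0.23.

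Col5a1, a chain of the fibril-nucleating collagen V, had 180.2, 192 and 222 CPM in the Heavy controls and 615, 324 and 468 CPM in the Heavy knockout libraries. In Total it had 273, 331 and 366 CPM in the control and 344, 325 and 442 CPM in the knockout. The Heavy groups were apart and the Total groups overlapped, and the shift was 1.00 (95% interval 0.42 to 1.59, limma adjusted p = 0.272). Its partner chain Col5a2 had a shift of 0.76 and Col6a3, a chain of the microfibrillar collagen VI, 0.66.

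Of 34 other matrix genes tested, 13 were above 0 at an unadjusted p under 0.05 and 1 below, with a median shift of 0.33. Fn1, which encodes the cell-adhesion protein fibronectin, had 244, 369.5 and 401 CPM in the Heavy controls and 1773, 1140.1 and 1509 CPM in the Heavy knockout libraries. In Total it had 644, 727 and 831 CPM in the control and 1523, 1603 and 1912 CPM in the knockout. It rose in both, by 2.13 in Heavy (limma adjusted p = 4.88e-07) and 1.19 in Total (limma adjusted p = 1.68e-04), and the shift was 0.93 (SE 0.264, limma adjusted p = 0.294). The basement membrane proteins Hspg2 (perlecan) and Lamb2 had shifts of 0.90 and 0.84 (limma adjusted p = 0.244 and 0.249). Below 0 was the short proteoglycan message Bgn (biglycan), which rose in Heavy by 0.39 (limma adjusted p = 0.0116) and in Total by 0.72 (limma adjusted p = 1.00e-04), with a shift of -0.33. The members above 0 at an unadjusted p under 0.05 had a median coding length of 5502 nt and the other members 2514 nt.

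At the other end were the ribosomal proteins. Of the 48 tested proteins of the large subunit, 47 had a shift below 0, 10 of them at an unadjusted p under 0.05, with a median of -0.40. All 34 tested proteins of the small subunit were below 0, 7 at that level, with a median of -0.38. In Heavy, 19 large and 14 small subunit messages fell and 0 rose, while in Total 1 large subunit message fell and 0 rose (limma adjusted p under 0.05). The median over the large subunit in Heavy knockout replicates 1, 2 and 3 was -0.97, -0.22 and -0.09, and over the small subunit -1.04, -0.24 and -0.12. Replicate 1 therefore set most of the distance of these medians from 0: without the knockout libraries numbered 1 they were -0.05 and -0.04. At an unadjusted p under 0.05, 7 large and 7 small subunit messages were then below 0, and 1 and 0 above. Of all genes tested, 2.67% were then below 0 at that level, and of the 11568 genes of at least 1 CPM, 178 were. Among genes of at least 1 CPM, the median of all messages of 301 to 600 nt was then 0.15. With the length trend removed from each library, the medians of the large and small subunit were -0.34 and -0.32.

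Ribosomal protein messages are known for a run of pyrimidines (C or T in the gene) that begins with C at the cap and places their translation under mTOR control. A run was searched on the sense strand as at least 5 letters in a row that are C or T, the first of them C, beginning within 5 bases of the annotated RefSeq start. It was found in 31 of the 62 cytosolic ribosomal protein genes with a start sequence (50.0%) and in 24.0% of the 7743 genes of at least 5 CPM with one. The 30 bases from 10 before to 20 after the annotated start are given here (RefSeq, GRCm38.p6), with the run in capitals, for the 5 of these 31 genes whose shift was below 0 at an unadjusted p under 0.05, and for the pair whose shifts were nearest to 0.
Rpl12, chr2:32961702-32961731, plus strand: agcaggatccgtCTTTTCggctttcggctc
Rps6, chr4:86857348-86857377, minus strand: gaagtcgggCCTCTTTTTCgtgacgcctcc
Gnb2l1, chr11:48800350-48800379, plus strand: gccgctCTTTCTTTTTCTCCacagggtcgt
Rpl15, chr14:18270967-18270996, minus strand: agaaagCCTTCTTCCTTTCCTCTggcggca
Rpl14, chr9:120571507-120571536, plus strand: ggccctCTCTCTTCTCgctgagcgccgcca
Rpl38, chr11:114668570-114668599, plus strand: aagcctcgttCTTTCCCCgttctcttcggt
Rps27, chr3:90213629-90213658, minus strand: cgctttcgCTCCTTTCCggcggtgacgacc

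The shifts of these genes were -0.90 for Rpl12, -0.53 for Rps6, -0.42 for Gnb2l1 (the ribosomal scaffold RACK1), -0.43 for Rpl15 and -0.48 for Rpl14, against -0.09 for Rpl38 and -0.04 for Rps27. The last 2 hold runs of 8 and 9 letters, within the 6 to 17 letters of the other 5. Without the knockout libraries numbered 1, Rpl38 was at 0.26 and Rps27 at 0.28. The other 5 kept their sign in every alternative. Their highest values there were -0.49 for Rpl12, -0.26 for Rps6, -0.23 for Gnb2l1, -0.22 for Rpl15 and -0.20 for Rpl14. With all libraries, the median shift over the 62 genes was -0.38 with a run and -0.42 without one. Among the other genes of at least 5 CPM it was 0.02 both with and without a run. The presence of these letters near the annotated start thus did not separate the ribosomal proteins by shift. A match is not shown to be a used start, and a run at a used start away from the annotated one would be missed. The comparison therefore cannot tell messages with such a run at the cap from messages without one.

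Rpl12, which builds the base of the ribosomal stalk, had the lowest shift of the ribosomal proteins. Its Heavy level was 821, 765 and 657 CPM in the control and 291, 582 and 679 CPM in the knockout. Its Total level was 2515, 2691 and 2524 CPM in the control and 3297, 3091 and 3027 CPM in the knockout. The Heavy groups overlapped, with replicate 1 the lowest, and the Total groups did not. The shift was -0.90 (95% interval -1.56 to -0.23, limma adjusted p = 0.409) and -0.49 without the knockout libraries numbered 1. Rpl12 hosts Snora65, so reads of the pair may be mixed.

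Rps4x, an X-linked small subunit protein, had a tighter pattern. Its Heavy level was 2394, 1992 and 2112 CPM in the control and 1212, 1636 and 1512 CPM in the knockout, with no overlap. Its Total level was 1531, 1477 and 1441 CPM in the control and 1500.3, 1421 and 1334 CPM in the knockout, with overlap. It fell in Heavy by 0.58 (limma adjusted p = 0.00112) and differed by -0.07 in Total (limma adjusted p = 0.733), for a shift of -0.52 (95% interval -0.86 to -0.17, limma adjusted p = 0.356). Knockout replicate 1 was again the lowest Heavy library, and the shift ran from -0.65 to -0.31 over the alternatives. Rpl5, which binds a small ribosomal RNA, had a shift of -0.50 and overlaps Fam69a in the annotation.

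Other short messages of the mitochondrion showed smaller negative shifts that came from replicate 1. The 77 mitochondrial ribosomal proteins had a median shift of -0.16 with 71 below 0, and 0 at an unadjusted p under 0.05 in either direction. The 76 subunits of the respiratory chain and ATP synthase had a median of -0.20 with 68 below 0, and 1 at that level. Without the knockout libraries numbered 1 both medians were above 0, at 0.09 and 0.10, with 3 and 4 genes above 0 and 2 and 2 below at that level. The member at that level was Ndufv3, a small subunit of complex I, which had a shift of -0.70 (limma adjusted p = 0.249): it was -0.24 in Heavy (limma adjusted p = 0.181) and rose by 0.46 in Total (limma adjusted p = 0.0136). The 31 proteasome subunits, in contrast, had a median of -0.18 with all libraries and -0.15 without those numbered 1, with 29 of 31 below 0. The 2 above 0 were Psmd1 (0.71) and Psmd2 (0.37), the large non-ATPase subunits of the regulatory particle, named after their values were seen.

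**Figure D4:**
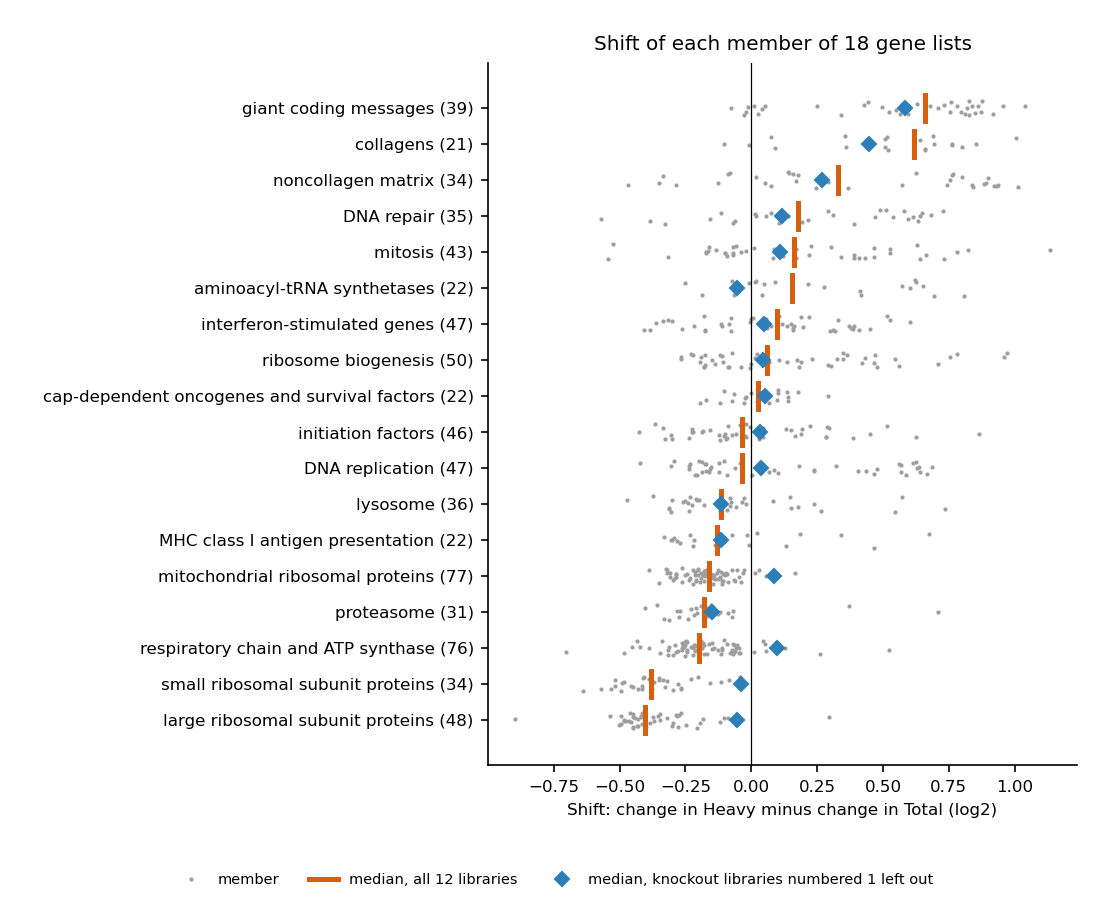
Shift (log2) of each tested member of 18 gene lists, 1 grey point a gene, with the number tested in brackets, the median over all 12 libraries as a bar and the median without the knockout libraries numbered 1 as a diamond. The giant messages and collagens have the highest medians (0.66 and 0.62) and the ribosomal proteins the lowest (-0.40 and -0.38); the diamonds of the ribosomal proteins lie near 0.

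The translation machinery outside the ribosome had no common direction. Of 46 initiation factors tested, 2 were above and 2 below 0 at an unadjusted p under 0.05, with a median of -0.03. Without the knockout libraries numbered 1 these were 5 and 2, with a median of 0.03. Eif4g1, the scaffold of the cap-binding complex, was the high one of the genes fixed for naming: it had 483, 589 and 580.0 CPM in the Heavy controls and 1001, 782 and 774 CPM in the Heavy knockout libraries. The Total libraries held 755, 796 and 855 CPM in the control and 652, 870.2 and 902 CPM in the knockout. It rose by 0.62 in Heavy (limma adjusted p = 0.00420) with overlapping Total groups, and the shift was 0.63 (limma adjusted p = 0.371), or 0.36 without the knockout libraries numbered 1. Eif3a, the largest subunit of the eIF3 complex, had a shift of 0.87, and the subunits Eif3f and Eif3h had -0.43 and -0.36 (limma adjusted p = 0.387, 0.349 and 0.474).

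The cap-binding protein Eif4e had a shift of -0.02 (95% interval -0.42 to 0.37) and its repressor Eif4ebp1 one of -0.00 (95% interval -0.48 to 0.47). Of 17 elongation and termination factors, 1 was above 0 at an unadjusted p under 0.05 (Eef2, the ribosome translocase, 0.51) and 2 below, among them Eef1b2 (-0.50). Of 22 aminoacyl-tRNA synthetases, 5 were above 0 at that level, led by Aars (0.81), and the median was 0.15, or -0.06 without the knockout libraries numbered 1. The 5 had a median coding length of 3534 nt, against 1692 nt in the rest of the list.

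Messages often named as sensitive to cap-dependent translation had shifts near 0. Of 22 such oncogenes and survival factors, 0 passed an unadjusted p under 0.05 in either direction (1 without the knockout libraries numbered 1), and the median was 0.02, beside 0.01 for all genes tested. Ccnd1, which encodes cyclin D1, rose in both fractions, from 208, 214 and 209 CPM to 266, 426 and 416 CPM in Heavy and from 124, 131 and 125 CPM to 164, 278 and 261 CPM in Total. The changes were 0.78 in Heavy and 0.84 in Total (limma adjusted p = 0.00535 and 0.00344), which left a shift of -0.06 (95% interval -0.63 to 0.50). Myc had 0.10 (95% interval -0.44 to 0.65), Mcl1 -0.07 (-0.34 to 0.20) and Odc1, the rate-limiting enzyme of polyamine synthesis, 0.14 (-0.72 to 1.00). The intervals of Ccnd1, Myc and Mcl1 leave out a shift of 1, and that of Odc1 reaches it. Among the commonly used reference genes, Actb had -0.19 and Gapdh -0.20.

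Atf4 encodes the transcription factor of the integrated stress response, and its upstream reading frames hold back its translation in unstressed cells. It had 224, 224 and 200.3 CPM in the Heavy controls and 524, 349.8 and 401 CPM in the Heavy knockout libraries. Total libraries had 675, 712 and 662 CPM in the control and 1002, 809.7 and 841 CPM in the knockout. The groups were apart in both fractions; Heavy rose by 0.95 (limma adjusted p = 1.81e-04), Total differed by 0.37 (limma adjusted p = 0.0888), and the shift was 0.59 (95% interval 0.13 to 1.04, limma adjusted p = 0.444). Of the 40 targets of the stress response tested, 21 rose and 1 fell in Heavy and 17 rose and 1 fell in Total. Their median changes were 0.60 and 0.46, and the median shift was 0.05, with 1 member (Atf4 itself) above 0 at an unadjusted p under 0.05.

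Genes of DNA replication and repair held a set of long members whose change in Heavy lay above that in Total. Of 35 repair genes tested, 10 were above 0 at an unadjusted p under 0.05 and 2 below, with a median shift of 0.18. With the knockout libraries numbered 1 left out, 6 were above 0 and 2 below at that level, and the median was 0.12. In Total 13 of them fell and 2 rose, and in Heavy 8 fell and 7 rose. Of all genes tested, 10.3% fell and 16.1% rose in Total, and 10.4% fell and 18.5% rose in Heavy. With all libraries, 5.67% of all genes were above 0 at an unadjusted p under 0.05 and 2.26% below. Fanca and Fancd2, both of the Fanconi anaemia pathway of crosslink repair, had shifts of 0.64 and 0.63, and each overlaps another gene in the annotation. Brca1, of homologous recombination, had 0.58. Rad52, of the same process, had -0.57 and fell in Heavy by 0.51 (limma adjusted p = 0.0141). The limma adjusted p-values of these 4 shifts were 0.272 to 0.433. The 10 members had a median coding length of 4333.5 nt, against 2118 nt for the rest of the list.

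Of 47 replication genes, 12 were above 0 at an unadjusted p under 0.05 and 0 below, but the median was -0.04. With the knockout libraries numbered 1 left out, 5 were above 0 at that level and the median was 0.04. In Total 13 fell and 0 rose, and in Heavy 18 fell and 6 rose, beside the shares of all genes given for the repair genes. Orc1, of the origin recognition complex, had 9.97, 9.49 and 10.9 CPM in the Heavy controls and 11.4, 8.997 and 10.2 CPM in the Heavy knockout libraries. The Total values were 17.3, 16.02 and 17.2 CPM in the control and 7.77, 11.7 and 12.6 CPM in the knockout. It fell in Total by 0.63 (limma adjusted p = 0.00403) with overlapping Heavy groups, for a shift of 0.64 (limma adjusted p = 0.362), or 0.37 without the knockout libraries numbered 1. Rrm1, the large subunit of ribonucleotide reductase, and Pole, the catalytic subunit of the leading-strand polymerase, had shifts of 0.69 and 0.59.

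Smc1a, a cohesin subunit, and Mcm3ap, which acts in mRNA export, also fell in Total, with smaller error. Smc1a had 9.60, 10.3 and 9.98 CPM in the Heavy controls and 13.2, 11.2 and 10.4 CPM in the Heavy knockout libraries, and in Total 37.9, 31.6 and 31.8 CPM in the control and 23.8, 24.0 and 24.4 CPM in the knockout. Its Heavy knockout libraries were all above its Heavy controls. Smc1a fell in Total by 0.47 (limma adjusted p = 0.00353) and had a shift of 0.66 (SE 0.149). Mcm3ap fell in Total by 0.54 (limma adjusted p = 0.00394) and had a shift of 0.80 (SE 0.177). Both shifts had a limma adjusted p of 0.202. Of 43 mitosis genes, 8 were above 0 at an unadjusted p under 0.05 and 1 below, with a median of 0.16. Of 50 ribosome biogenesis genes, 8 were above 0 at that level and 0 below, with a median of 0.06; the long members Utp20 and Mybbp1a had 0.78 and 0.96.

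Immune and lysosomal programs changed in both fractions, with median shifts that were small beside those changes. Of 22 genes of MHC class I antigen presentation, 20 rose in Heavy and 19 in Total, with median changes of 1.44 and 1.72. Their median shift was -0.13, with 16 below 0 and 6 above. H2-D1, a classical class I heavy chain, rose by 1.58 in Heavy and 1.86 in Total (limma adjusted p = 1.93e-07 and 4.04e-08), with a shift of -0.28 (95% interval -0.66 to 0.09). Of 47 interferon-stimulated genes, 38 rose in Heavy and 30 in Total, with median changes of 0.89 and 0.84 and a median shift of 0.10. Of 36 lysosome genes, 27 rose in Heavy and 28 in Total. Their median shift was -0.11, with 27 below 0 and 9 above, 2 and 2 of them at an unadjusted p under 0.05. Without the knockout libraries numbered 1 it was -0.12, with 5 below 0 and 2 above at that level. The protease Ctsl had a shift of -0.38 (limma adjusted p = 0.460).

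Igfbp7 and Galnt11 fell by much in both fractions, by unequal amounts. Igfbp7, a secreted binder of growth factors, fell from 194, 177 and 154 CPM to 18.003, 18.5 and 17.3 CPM in Heavy and from 116, 120.3 and 106 CPM to 17.2, 17.6 and 14.9 CPM in Total. The falls were 3.21 and 2.71 on the log2 scale (limma adjusted p = 1.47e-11 and 2.14e-10), and the shift was -0.50 (SE 0.147, limma adjusted p = 0.327). Galnt11, a glycosyltransferase of the Golgi, fell from 4.95, 5.21 and 5.13 CPM to 0.717, 0.739 and 0.899 CPM in Heavy and from 12.97, 13.7 and 11.8 CPM to 1.47, 1.49 and 1.83 CPM in Total. Its shift was 0.64 (SE 0.145, limma adjusted p = 0.202), on a scale that compresses changes under 1 CPM.

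Wwox and Cenpt had shifts below 0 with replicates close together. Wwox, an oxidoreductase with tumour-suppressor functions, had 9.80, 9.77 and 10.3 CPM in the Heavy controls and 3.12, 3.27 and 3.53 CPM in the Heavy knockout libraries. Total RNA had 7.97, 7.69 and 7.72 CPM in the control and 4.75, 4.09 and 4.11 CPM in the knockout. The replicates were close in all 4 groups, and it fell by 1.35 in Heavy and 0.73 in Total (limma adjusted p = 3.78e-08 and 1.91e-05). The shift of -0.62 had the smallest unadjusted p among genes of at least 5 CPM, with a limma adjusted p of 0.202. It passed in limma without a trend (adjusted p = 0.00932) and with the gene-by-gene array weights (limma adjusted p = 0.0368).

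Cenpt, an inner kinetochore protein, had 82.1, 89.4 and 82.6 CPM in the Heavy controls and 28.7, 34.9 and 32.1 CPM in the Heavy knockout libraries. The Total levels were 48.6, 58.5 and 55.1 CPM in the control and 29.1, 33.5 and 34.1 CPM in the knockout. Its shift was -0.66 (SE 0.171, limma adjusted p = 0.249) and the same without the knockout libraries numbered 1. It overlaps Tsnaxip1 in the annotation. Tpmt, a thiopurine methyltransferase, had a shift of -0.81 (limma adjusted p = 0.255).

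Nuclear and other noncoding RNAs had no common direction, while most hosts of small nucleolar RNAs had shifts above 0. Of 15 nuclear and other noncoding RNAs tested, 1 was above 0 at an unadjusted p under 0.05 (Neat1) and 3 below (Mirg, Rian and Rpph1), with a median shift of 0.05, or -0.06 with quantile normalization. Neat1, the nuclear RNA that scaffolds paraspeckles, had 8.26, 8.26 and 7.85 CPM in the Heavy controls and 23.7, 19.3 and 26.9 CPM in the Heavy knockout libraries. Total libraries held 119, 84.0 and 65.6 CPM in the control and 127, 92.0 and 93.2 CPM in the knockout. The Heavy groups were apart and the Total groups overlapped; it rose by 1.40 in Heavy (limma adjusted p = 1.17e-04), and the shift was 1.16 (95% interval 0.52 to 1.80, limma adjusted p = 0.249). Mir22hg, the host of Mir22, had a shift of 1.20 (limma adjusted p = 0.202) and passed with the gene-by-gene array weights (limma adjusted p = 0.0443). A place in the Heavy pool is not shown to be a place on ribosomes. The 19 hosts of small nucleolar RNAs had a median shift of 0.23, with 16 above 0 and 3 below, and 0 at an unadjusted p under 0.05 in either direction. With quantile normalization the median was 0.05, and without the knockout libraries numbered 1 it was 0.31 with 5 members above 0 and 0 below at that level.

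**Figure D5:**
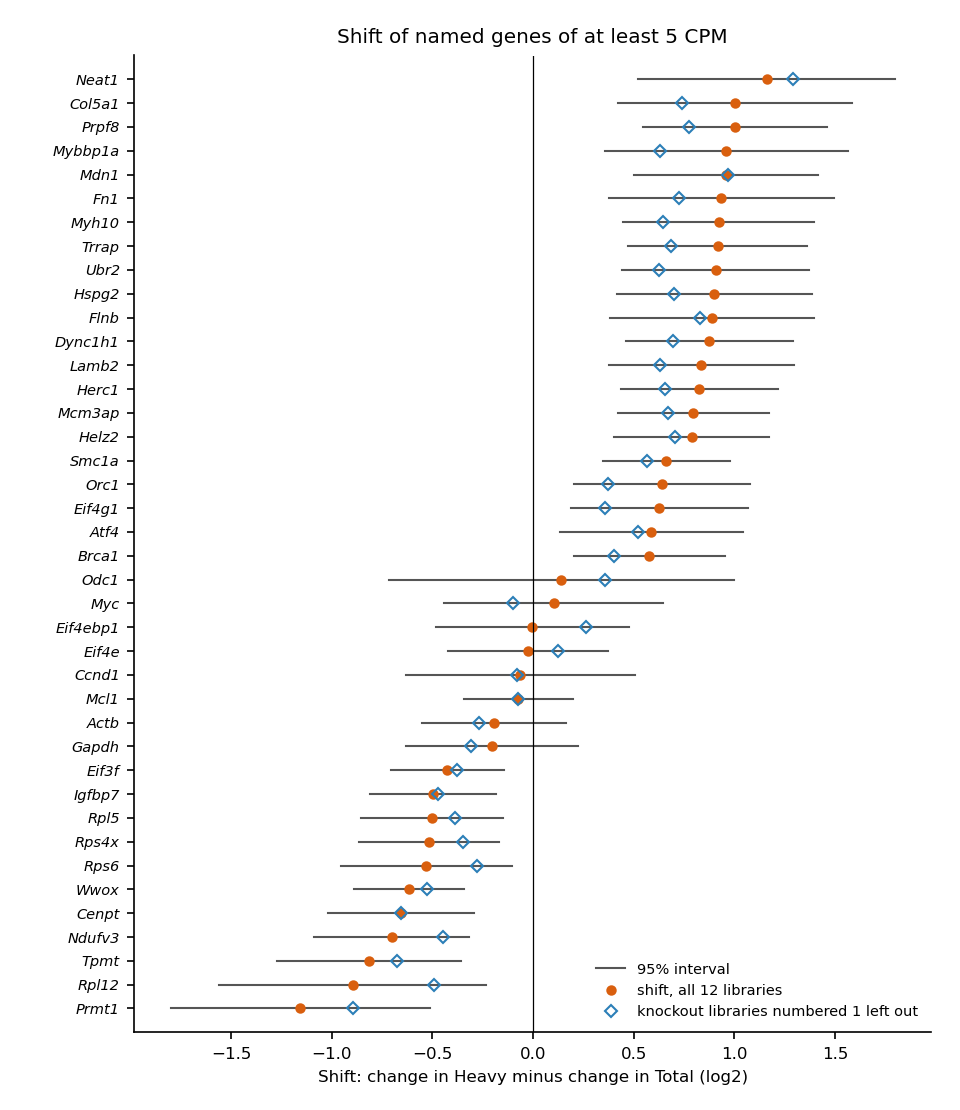
Shift (log2) of 40 named genes of at least 5 CPM, sorted, with the 95% interval of the limma fit as a line, the value over all 12 libraries as a filled circle and the value without the knockout libraries numbered 1 as an open diamond. The intervals of Eif4e, Eif4ebp1, Myc, Ccnd1, Mcl1, Odc1, Actb and Gapdh include 0; Mybbp1a, Eif4g1, Orc1 and Rpl12 are among those whose diamond lies closer to 0 than the circle.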

How the data were processed

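The series measured RNA in 18 sequencing libraries, of which the 12 Heavy and Total libraries enter the shift. The deposited values are log2(CPM + 1), in a single table of 19862 genes. Per the submitters' processing notes, STAR, edgeR and the mm10 build were used; no source used here names the program that counted reads, the gene models or the strandedness, which leaves overlapping genes uncertain. With the log2 undone, 100% of the values lay within 0.1 of a whole read, and depths were 32255673 to 57948663 reads.

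The shift was fitted with limma 3.58.1 in R 4.3.3 (trend and robust variances) as an interaction of 6 group means over all 18 libraries, which share the estimate of the spread. Genes above 0 in at least 3 libraries were kept, and calls were made at a Benjamini-Hochberg adjusted p under 0.05 over all 17515. A log2 value is a change of log2(CPM + 1), smaller than that of CPM for rare messages. The Heavy and Total changes of a gene share no library with each other, but each enters the shift. Coding lengths (17397 genes) came from GENCODE M21; gene positions, overlaps and start sequences came from RefSeq (GRCm38.p6). The fit was tested on simulated data.

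The members and the 50 gene lists were chosen with earlier results of these data known. The naming rule took up to 12 called genes of at least 5 CPM in each direction, up to 3 called members of each list in each direction and 11 set genes. No called gene reached 5 CPM, so the other genes named are the called genes, some of the 15 with the lowest p in each direction among genes of at least 5 CPM, list members with the lowest p and the exceptions in a list, chosen after their values were seen. Figures were drawn with matplotlib 3.10.9.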

Additional observations from a re-analysis of the deposited data

Results flagged for a closer look

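On the log2(CPM + 1) scale, the limma test of the difference between the Heavy and Total changes called 2 genes. The long noncoding RNA 4833412C05Rik had a shift of 1.13 on the log2(CPM + 1) scale (limma adjusted p = 7.75e-04) and was lower in all 3 knockout libraries of both fractions. Its sign turned on the recovered reads with voom (-0.31). Cngb1 had a shift of -1.02 (limma adjusted p = 0.0295) and was higher in all 3 knockout libraries of both fractions. Both average under 1 CPM over the 12 libraries, at 0.745 and 0.552 CPM. With a pseudocount of 0.1 CPM, and with voom on the recovered reads, 0 genes were called in the shift. The cause was not tested.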

How the results depend on the processing

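The count of genes called in the shift was 0 to 9 in every setting but 1. Against 2 genes in the report, it was 1 without a filter on low values, 0 with a mean of 1 CPM or more (889 genes at an unadjusted p under 0.05 by limma), 0 with at least 5 CPM in every group (657 genes), 0 with a pseudocount of 0.1 CPM (1265 genes), 0 with voom on the recovered reads (1205 genes), 1 with the coding-length trend removed, 1 with protein-coding genes only and 4 without the 3 knockout libraries numbered 1. Leaving out 1 library gave 1 to 9 genes, the 9 without Total knockout replicate 3. Array weights in the gene-by-gene method, chosen after seeing the data because the default estimate had not converged, gave 26 genes, 11 higher and 15 lower, 4 of them of at least 5 CPM.

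Same-numbered libraries were not paired by any label, and the deviations of Heavy and Total libraries with the same number correlated at -0.51, 0.15 and -0.26 in control and 0.29, 0.54 and 0.03 in knockout cells. With the replicate number within a genotype as a fixed block, 1 gene was called in the shift. For the change within a fraction the block was the number shared by control and knockout libraries, which no label pairs. It was fitted on the libraries of that fraction alone. It gave 384 genes in Heavy against 5061 without it, 5828 in Total against 4628 and 6339 in Light against 6926. The replicate block as a random effect gave 3 genes in the shift.

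With at least 5 CPM in every group, 3342 genes were called in Heavy, 2274 in Total and 4474 in Light, since fewer genes were tested. The default array weights gave 3098 in Heavy and 7779 in Total. They gave Heavy knockout replicate 2 a weight of 6.85e-05 and Total control replicate 2 one of 8.55. The cause of these counts was not tested. Leaving out 1 library gave 3951 to 5593 genes in Heavy, 3598 to 4049 in Total and 5642 to 6534 in Light, against 4628 and 6926 genes called in Total and Light with all libraries.

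Over all genes tested, the median shift of messages over 2700 nt was 0.21, 0.13 to 0.28 with 1 library left out, 0.37 with voom and -0.13 with the length trend removed. That of 1201 to 2700 nt was 0.02, and it was -0.023 with median-of-ratios scaling, -0.031 with TMM scaling, 0.065 with voom and -0.040 with the trend removed. For 601 to 1200 nt it was -0.04, and -0.12 and -0.13 with those scalings, -0.092 with at least 1 CPM, -0.10 with at least 5 CPM, -0.0023 with default array weights, -0.084 with the pseudocount, -0.087 with voom, 0.0077 without the knockout libraries numbered 1, 0.013 with the trend removed and -0.077 to -0.0042 with 1 library left out. Up to 300 nt it was -0.01, and 0.12 with gene-by-gene array weights, 0.19 without the knockout libraries numbered 1 and -0.064 to 0.14 with 1 library left out. Of the 68 named genes, 59 had the same sign in every setting. Signs turned for 4833412C05Rik with voom (-0.31), for Actb with quantile normalization (0.18), and for 7 others. Without the knockout libraries numbered 1 these were Eif4e (0.12), Eif4ebp1 (0.26), Myc (-0.10), Rpl38 (0.26) and Rps27 (0.28). With the trend removed they were Eif4e (0.070), Eif4ebp1 (0.076) and Ccnd1 (0.023). With default array weights they were Eif4e (0.041), Eif4ebp1 (0.36), Myc (-0.18) and Rpl38 (0.044), with gene-by-gene weights Eif4ebp1 (0.19), Myc (-0.079), Rpl38 (0.16) and Rps27 (0.19), and with both scalings Myc (-0.017 and -0.032). With 1 library left out, the range was -0.14 to 0.10 for Eif4e, -0.16 to 0.15 for Eif4ebp1, -0.30 to 0.16 for Ccnd1, -0.11 to 0.27 for Myc, -0.13 to 0.54 for Odc1, -0.29 to 0.25 for Rpl38 and -0.19 to 0.22 for Rps27.

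An edgeR test on recovered reads had been planned and was not run, because the deposited values are logged. The 3 libraries in a group and an SE of about 0.216 limit what a single gene's shift can show.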
